A study of Glycine max with 18 samples.

Results

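The comparison concerned embryos of soybean (Glycine max), cultivar Williams 82, at mid maturation against early maturation, the step towards the peak of reserve filling. Its members were chosen by the stage labels alone: 3 mid maturation and 3 early maturation libraries, 6 of the 18 in the series, over all 51546 gene identifiers of the deposited files. Early maturation embryos had been taken from seeds 6 to 7 mm long, and mid maturation embryos from seeds that weighed 200 to 250 mg. Since one stage was set by length and the other by weight, the difference in seed size between the groups cannot be stated. The plants were untreated greenhouse plants, and embryo is the labelled tissue of both stages. The other 12 libraries, 3 each of cotyledon-stage embryos, late maturation, dry seed and whole seedlings 8 days after sowing (8 DAI in the titles), served to describe levels outside the comparison. Whole seedlings is the labelled tissue, while the column names of these libraries also hold COT, which no label explains. Late maturation samples held the seed coat as well as the embryo. The labels call the libraries biological replicates without saying whether they came from separate plants, so p-values measure the spread between these samples. In the gene tests that spread was estimated over all 18 libraries of the series, not from the early and mid libraries alone.

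As background, a maturing soybean embryo stops dividing and its cotyledon cells enlarge while they fill with storage proteins, kept in protein storage vacuoles, and with oil, kept in oil bodies. The main storage proteins of soybean are the globulins glycinin and beta-conglycinin, whose messengers are among the most abundant of the filling embryo. In Arabidopsis, LEC1, ABI3, FUS3 and LEC2 are the regulators known to switch such seed genes on. None of these names is attached to a value here. The files give identifiers only, and 0 of the 51546 matched an entry of the gene table used here (Glycine max v4.0, 59048 genes). Genes are therefore described by level, size of change and identifier, with 2 that rose and 2 that fell given by name, and the labelled tissue could not be checked against marker genes. For the same reason, no test of pathways or of markers of the seed coat or endosperm was made, and no sequence is shown.

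Polyadenylated RNA had been sequenced, and the deposited values correspond to reads per 1000000 after trimmed mean of M-values (TMM) scaling, called normalized values below. Recovered reads ranged from 5122702 to 8776240 in early and from 3572134 to 7097840 in mid maturation. A gene with 3 reads, taken as the counting floor, stood at 0.319 to 0.540 in the early libraries and at 0.678 to 1.30 in the mid libraries. The mid maturation libraries thus resolve low genes less well.

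Before the results, 1 early maturation library has to be set apart. For each library, genes were called without it, and its place was measured per gene as the percentage of the way from the other libraries of its stage (0%) to the mean of the opposite stage (100%). Early maturation replicate 3 lay 16.6% of the way to mid maturation (median of 10440 genes, quartiles 3.87% and 29.3%), and 80.7% of the genes were displaced in that direction. With a limit of 2 on the log2 difference its median place was 10.9% over 2414 genes. Replicates 1 and 2 lay at -8.58% and -2.51%, on the far side of the other early libraries, which in both cases included replicate 3. The displacement of replicate 3 was larger for genes that rose, with a median of 20.4%, than for genes that fell, with 14.0%. The same library lay as far towards another stage, at 17.5% of the way to the cotyledon stage and at 5.43%, 3.43% and 4.79% towards late maturation, dry seed and seedling. Mid maturation replicates 1, 2 and 3 lay at 5.12%, 3.38% and -0.374% of the way to early maturation. Among 15722 genes with a mean of at least 10, the median absolute log2 difference between early replicates 1 and 2 was 0.139, against 0.238 and 0.228 between each of them and replicate 3. Whether replicate 3 differed in seed size or handling is not given in the labels, and its part in the calls is shown by values without it.

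**Figure D1:**
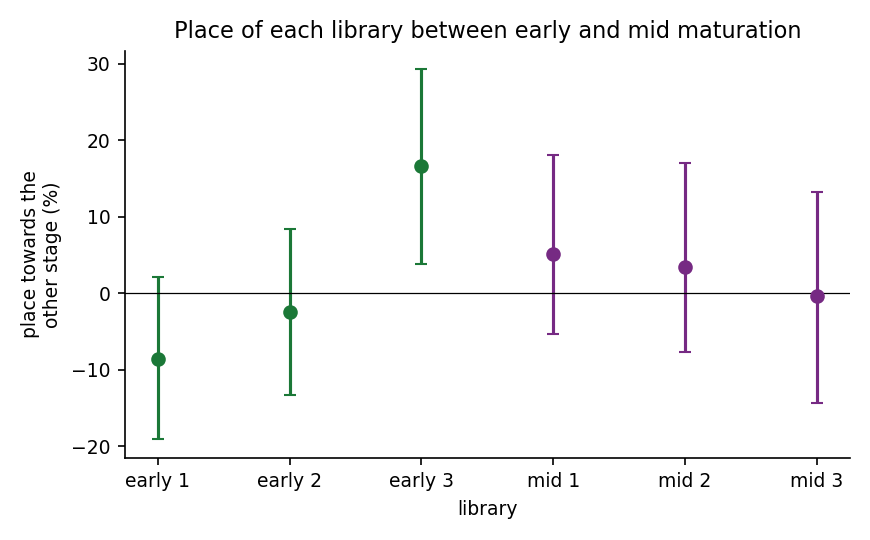
Place of each of the 6 libraries, in percent of the way from the other libraries of its own stage (0%) to the opposite stage; points are medians over genes called without that library and bars span the quartiles. Early maturation replicate 3 sits at 16.6%, and the other 5 libraries lie between -8.58% and 5.12%.

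The step changed the level of about 1 tested gene in 4. Over the 36872 genes tested, a call needed both a limma p below 0.05 after Benjamini-Hochberg adjustment and a log2 difference of 1 or more in size, taken on log2(value + 1). By this rule 4181 genes rose (11.3%) and 5402 fell (14.7%), together 26.0% of those tested. Without early maturation replicate 3 the counts were 4625 and 5815, and 9355 of the 9583 calls were made again in the same direction. Most changes were moderate. Genes that rose had a median log2 difference of 1.495 and those that fell one of -1.46. Of the genes that rose, 3144 did so by a log2 difference of 1 to 2, 761 by 2 to 3, 239 by 3 to 5 and 37 by 5 or more. Of those that fell, the counts in the same classes were 4291, 793, 292 and 26. After total rescaling, which compares shares of the messenger pool, the counts were 1245, 289, 93 and 22 for genes that rose and 8856, 2423, 572 and 48 for genes that fell. All 3 mid libraries lay above all 3 early libraries for 9570 of the tested genes (26.0%) and below them for 12249 (33.2%), so replicates separated for many genes whose difference was below the limit. Among called genes, 4174 that rose and 5385 that fell had no overlap between the libraries of the stages.

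Abundant genes were the ones that rose most often. Of the 68 genes with an average of at least 1000 over both stages, 37 rose (54.4%) and 9 fell (13.2%), and those that rose had a median log2 difference of 3.24. In the class from 100 to 1000 the balance lay the other way, with 210 of 1089 that rose (19.3%) and 347 that fell (31.9%). From 10 to 100, 14.6% of 14565 genes rose and 18.7% fell, and from 1 to 10 the shares were 12.3% and 15.9% of 13995. By share of the pool, 28 genes rose and 14 fell at 1000 or more, while from 100 to 1000 the counts were 116 and 625, from 10 to 100 they were 818 and 6286, and from 1 to 10 they were 684 and 4782. Under 1, where a log2 difference of 1 is hard to reach on this scale, 1.24% of 7155 genes rose and 1.37% fell, and by share 3 rose and 192 fell. A gene that rises steeply enters a higher class through its mid maturation value, so the classes describe the calls and are no independent test of them.

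**Figure D2:**
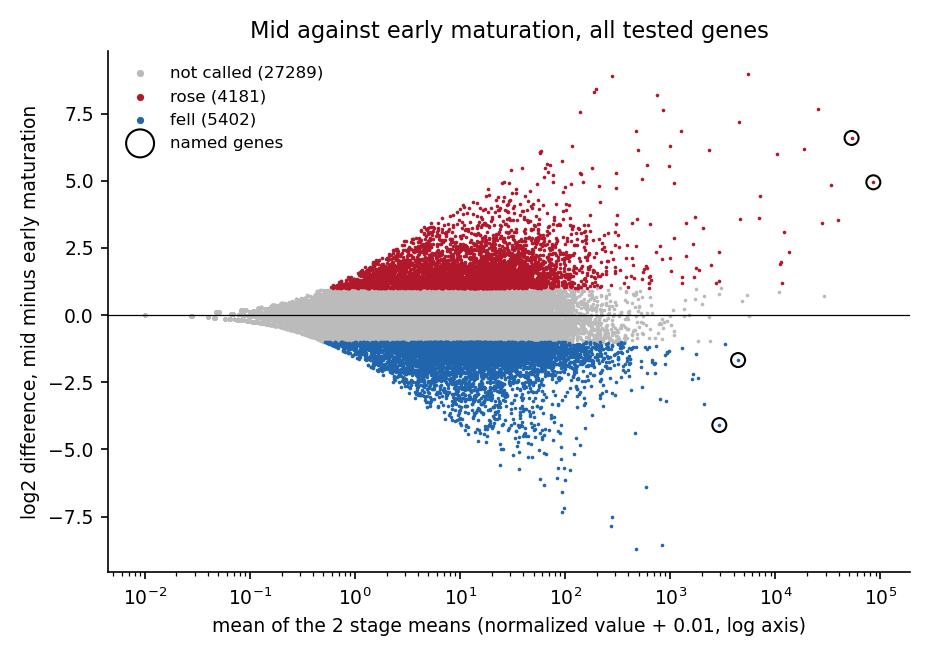
Log2 difference of mid minus early maturation, on the log2(value + 1) scale, against the average of the stage means of each gene on a log axis; 1 point is 1 of 36872 tested genes, coloured by its call, and circles mark the named genes. Among the 68 genes at 1000 or more, 37 rose and 9 fell.

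How the libraries were scaled changed the balance between gains and losses. Median-of-ratios and upper-quartile rescaling moved the median of all tested genes by little, from -0.06 to -0.05 and -0.03. Total rescaling, which sets every library to the same sum and so compares shares of the messenger pool, moved that median by -0.48 to -0.55. On that scale 1649 genes rose (4.47%) and 11899 fell (32.3%). None of the genes that rose as deposited fell by share: 1649 rose on both scales and 2532 were not called by share. All 5402 genes that fell as deposited also fell by share. A further 6497 fell by share alone, that is, they were not called on the deposited scale. Total rescaling divided early values by 0.891 to 0.934 and mid values by 1.54 to 1.60, which lowers mid against early values for every gene. The absence of reversals and the repeated falls therefore follow from the scaling and are no separate support for the calls. The amount of RNA per embryo was not measured, so neither scale gives transcript numbers per cell. In bulk embryos, fewer cells of a type and less RNA per cell cannot be told apart.

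The gain was carried by few genes and the loss by many. Summed over the 16596 tested genes with a higher mean at mid maturation, the gain in mean normalized value was 948800, and 6 genes held 50% of it. The gene with the largest gain held 16.9%, the 10 largest 61.5% and the 100 largest 82.5%. Summed over the 19756 genes with a lower mean, the loss was -298400, and 678 genes held 50% of it. Its largest single contributor held 1.74%, the 10 largest 9.11% and the 100 largest 24.2%. To reach 90%, 826 genes were needed for the gain and 6003 for the loss. Without early maturation replicate 3, 6 genes held 50% of the gain and 666 genes 50% of the loss. By share of the pool the numbers were 5 and 1083. Shares have a fixed sum, so a large gain by few genes lowers the shares of all others. The numbers by share are therefore no separate support for the difference between gain and loss.

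**Figure D3:**
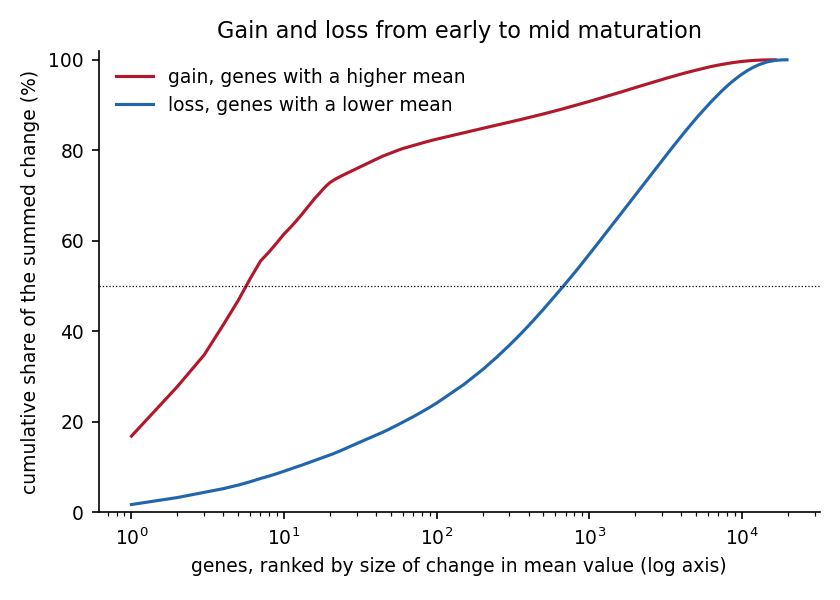
Cumulative share of the summed gain and of the summed loss in mean normalized value, in percent, against the number of genes ranked by the size of their change (log axis). The gain passes the dotted line at 50% with 6 genes and the loss with 678.

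All 10 genes with the largest gain rose by the test, on the deposited scale and by share, with log2 differences of 2.33 to 7.68. Their identifiers name 6 chromosomes. In early maturation their means ranged from 260 to 6339, and at mid maturation from 20250 to 165500. Together these 10 genes, chosen on these libraries, held 2.48%, 2.95% and 3.81% of the pool in early maturation replicates 1 to 3, where the pool is the summed value per library, not corrected for transcript length. In mid maturation replicates 1 to 3 they held 39.1%, 38.6% and 39.5%. They were nearly absent from the pools at both ends of the series, with a mean of 0.0181% at the cotyledon stage and 0.0174% in seedlings, and held 9.20%, 4.95% and 4.22% in late maturation replicates 1 to 3 and 2.26% to 4.37% in dry seed. Outside these 10 genes the summed values were 887180 ± 27460 (SD, n = 3) in early and 953690 ± 26590 in mid maturation. Of the 10 genes with the largest loss, 9 fell by the test, and the tenth missed the limit with a log2 difference of -0.97. By share of the pool all 10 fell, on a scale that by itself lowers mid against early values. As a group they went from 3.98% ± 0.224 of the early pool to 0.590% ± 0.0663 of the mid pool.

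Glyma.03G163500, whose identifier places it on chromosome 3, had the largest gain of all genes. Its normalized values were 4421, 4793 and 7288 in early maturation replicates 1 to 3 and 168537, 165523 and 162374 in mid maturation. The mid libraries lay within a narrow band, and early replicate 3 was the highest of its stage. The means were 5500.5 ± 1560 (SD, n = 3) and 165480 ± 3080, a 30.1-fold ratio, and the log2 values differed by 4.95 (SE 0.393, adjusted p = 9.76e-10 by limma). The gene moved from the eighth place to the first among all identifiers, and alone accounted for 10.3% to 10.9% of the reads of a mid maturation library. Its cotyledon-stage level was 30.3 ± 7.89, and seedlings had 40.9 ± 19.8. Late maturation replicates 1 to 3 stood at 37558, 17133 and 10957, with replicate 1 far above the others, and dry seed ranged from 10032 to 26279, so these stages overlapped.

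Glyma.10G037100, on chromosome 10 by its identifier, had the second largest gain. Early maturation replicates 1 to 3 stood at 709, 1100 and 1631, and mid maturation replicates at 98627, 108656 and 107815. Early replicate 3 was again the highest of its stage, and the lowest mid library exceeded it many times over. The means, 1146.7 ± 463 and 105030 ± 5560 (SD, n = 3), differed 91.6-fold, by 6.60 on the log2 scale (SE 0.489, limma adjusted p = 3.64e-10). This gene rose from rank 50 to rank 2. Its level at the cotyledon stage was 14.9 ± 3.53 and in seedlings 12.2 ± 1.58. In late maturation its libraries were spread from 2155 to 16172, with replicate 1 the highest, and in dry seed its mean was 1992 ± 1110.

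Glyma.19G186100, on chromosome 19 by its identifier, had the largest loss. Its values were 6242, 5342 and 5004 in early maturation replicates 1 to 3 and 328, 375 and 270 at mid maturation, so the stages were far apart. The means were 5529 ± 640 and 324.5 ± 52.8 (SD, n = 3), 17.0-fold lower at mid maturation, and the gene fell by 4.09 on the log2 scale (SE 0.153, limma adjusted p = 1.6e-14). It dropped from rank 7 to rank 212. It had been high before the comparison, with 4013 ± 199 at the cotyledon stage, went on to 120.2 ± 12.7 in late maturation, while dry seed had 164.7 ± 22.1 and seedlings 1150.5 ± 60.5.

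Glyma.11G153800, on chromosome 11 by its identifier, had the second largest loss but a smaller fold change. Early maturation replicates 1 to 3 stood at 7529, 6882 and 5751 and mid maturation replicates at 2403, 2205 and 1731. They did not overlap, which was a condition for each named gene. The mean of Glyma.11G153800 went from 6721 ± 900 to 2113 ± 345 (SD, n = 3), 3.18-fold lower. On the log2 scale this gene fell by 1.67 (SE 0.223, limma adjusted p = 1.59e-06). In contrast to the preceding gene it was low at the cotyledon stage, 815 ± 118. Late maturation had 9.39 ± 4.12 of it, dry seed 4.21 ± 0.617, and the seedling libraries 3.20 ± 0.823. Soybean carries many near-identical gene pairs, and how the authors counted reads that match more than 1 gene is not given, so the values of these genes may include reads of a close copy.

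**Figure D4:**
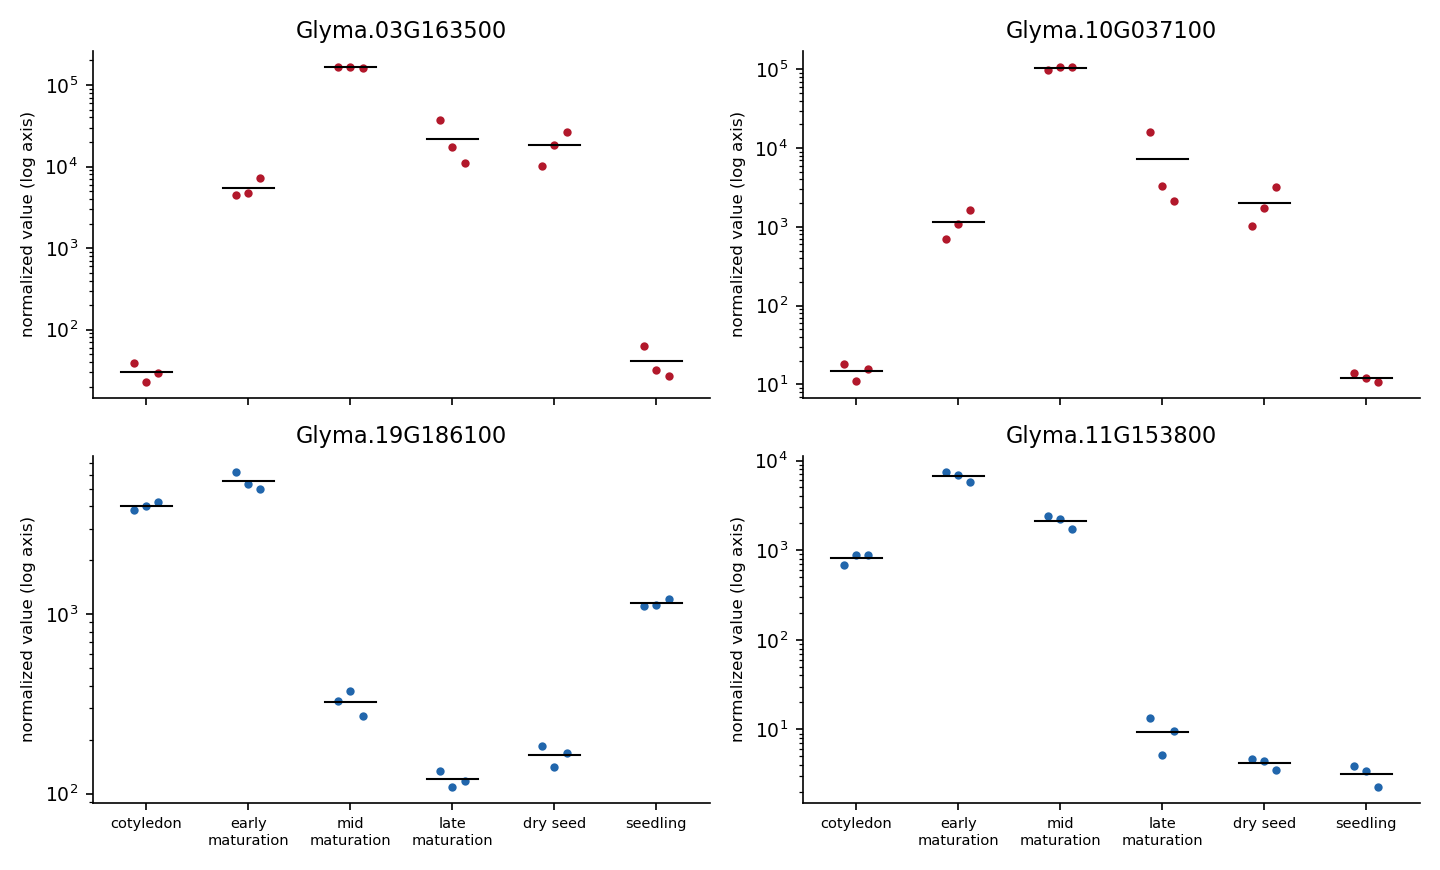
Normalized values (log axes) of the named genes in all 18 libraries, 3 per stage in replicate order from left to right; black bars are stage means and the colour gives the direction of the call (red rose, blue fell). Both genes that rose are highest at mid maturation, and both that fell are lower at mid than at early maturation in every library. Separation of the early and mid libraries was a condition for naming a gene.

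Replicates of a stage differed little in how concentrated the pool was. The 10 most abundant genes of a library held 8.22%, 8.35% and 8.37% of its pool in early maturation and 40.2%, 39.6% and 40.4% in mid maturation. The number of genes that made up 50% of the pool was 1291, 1318 and 1482 in early maturation and 23, 24 and 21 in mid maturation. The most abundant genes were in part the same: 4 were shared by the top 10 of both stages, 55 by the top 100 and 540 by the top 1000. The top 10 of mid maturation had ranked from first to 379th in early maturation, with a median rank of 17. Genes at 1000 or more numbered 60.0 ± 6 in early and 71.0 ± 1 in mid maturation (SD, n = 3), and genes at 100 or more 1288 ± 77.0 and 1100 ± 60.3. Across 7 such values per library the exact two-sided permutation test gave p = 0.1 each time, also after Benjamini-Hochberg adjustment, which is the smallest p that 3 against 3 libraries allow.

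As groups, the genes that rose and the genes that fell had different levels outside the comparison. The median stage mean of the 4181 genes that rose was 6.18 at the cotyledon stage and 5.31 in early maturation, below the 7.42 and 7.12 of all tested genes. It was 19.8 at mid maturation, 18.2 in late maturation and 10.2 for dry seed, where all tested genes stood at 6.38, 4.69 and 3.26, and seedlings had 11.8 against 7.81. The 5402 genes that fell had a median of 18.8 at the cotyledon stage and 19.7 in early maturation. They stood at 5.32 in mid maturation, 2.18 in late maturation and 1.52 for dry seed, and seedlings had 8.29. In dry seed 45.2% of the genes that fell had a mean under 1, against 36% of all tested genes and 22.6% of those that rose. Per library the median of the genes that rose was 4.57, 4.86 and 6.08 in early maturation and 19.6, 19.9 and 19.5 in mid maturation. The genes were called on these early and mid values, so the difference between these stages follows from the choice. Only the levels at the other stages lie outside it.

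**Figure D5:**
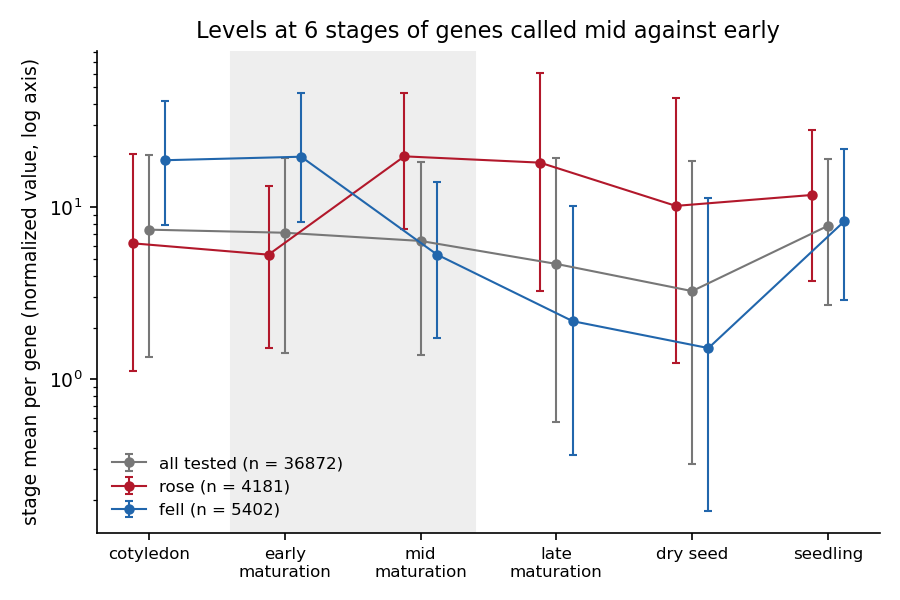
Stage means per gene (normalized value, log axis) at the 6 stages for genes that rose, genes that fell and all tested genes; points are medians over genes, bars span the quartiles, and the shaded stages are those compared. Genes that fell have a median of 18.8 at the cotyledon stage and 1.52 in dry seed, and genes that rose one of 6.18 and 10.2.

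Pairs of stages that share no library with the comparison showed how the same genes behaved elsewhere. From late maturation to dry seed, 7.84% of the tested genes rose and 14.5% fell (limma, same rule). Of the genes that had risen to mid maturation, 1276 (30.5%) fell in that later step, which is 23.9% of all that fell in it, and 228 (5.45%) rose. Of the genes that had fallen to mid maturation, 434 (8.03%) fell and 407 (7.53%) rose. A gene can be called lower only where it has a level to lose. Among genes with a late maturation mean of at least 10, the share that fell was 34.8% of the 2522 genes that had risen and 9.63% of the 1371 that had fallen, against 19.4% of all 13616. Late maturation samples also held the seed coat, and whether a difference in tissue entered this step was not tested.

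Seedlings were likewise compared with cotyledon-stage embryos, where 28.4% of the tested genes were higher in seedlings and 22.7% lower. Among the genes lowered at mid maturation, 2849 (52.7%) were lower in seedlings than in cotyledon-stage embryos, 34.0% of that list, and 752 (13.9%) were higher. Of the genes that rose, 481 (11.5%) were lower and 1392 (33.3%) higher. Among genes with a cotyledon-stage mean of at least 10, 63.8% of the 3745 that fell were lower in seedlings, against 20.5% of the 1719 that rose and 39.2% of all 15905. No test was made of these overlaps, since genes are not independent of one another.

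Complete switches between the stages were rare. No gene without a read in the early libraries reached 10 in all mid libraries, and 1 did the reverse. Genes under 1 in all early libraries and at 10 or more in all mid libraries numbered 34, and the reverse 45. A value under 1 rests on fewer reads at mid maturation, where 3 reads equal 0.678 to 1.30, against 0.319 to 0.540 in early libraries. The upward and downward counts, also those at 0 reads, are therefore not directly comparable. Both sets of genes were chosen by the values compared, so their levels in the other stages are what is left to describe. Of the 34 that appeared, 30 were also under 1 on average at the cotyledon stage, and their median stage mean was 20.5 at mid maturation, 5.74 in late maturation and 1.59 in dry seed. By late maturation 15 of them were at 10 or more and 10 under 1. Of the 45 that disappeared, 35 were at 10 or more at the cotyledon stage, 39 were under 1 in late maturation, 39 were under 1 in dry seed, and 8 were at 10 or more in seedlings.

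The changes were spread over the whole genome. Soybean identifiers carry the chromosome and are numbered along it. On the 20 chromosomes the share of tested genes that rose lay between 10.2% and 13.1%, highest on chromosome 20, and the share that fell between 12.8% and 16.0%, lowest on chromosome 16 and highest on chromosome 3. Among 197 genes on unplaced scaffolds 16.8% rose and 10.7% fell. Neighbours went the same way slightly more often than the genome at large. Where a gene rose, the next tested identifier rose in 14.5% of 4142 cases, against 11.3% of all pairs. After a gene that fell, 16.8% of 5381 next identifiers fell, against 14.7% of all pairs. Opposite directions were slightly less common than among all pairs: 13.3% of the identifiers that followed a gene that rose had fallen, against 14.7%. The longest runs held 5 neighbours that rose and 6 that fell. These shares are descriptions without a test.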

How the data were processed

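The deposited files hold 1 normalized signal value per identifier and library, made by the authors with Bowtie 0.12.7 and edgeR 3.0.8 per the submitters' processing notes; the sources used here do not give build, annotation or counting. Divided by the value of 1 read in their library, 927825 of 927828 values lay within 0.05 of a whole read, and TMM factors recomputed from these reads matched the deposited scaling.

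Genes at 1 or more in at least 3 of 18 libraries (36872) were fitted on log2(value + 1) in 1 model over 6 stages, using limma 3.58.1 (R 4.3.3), its trend option and two-sided tests. This scale understates changes of low genes. Alternatives included edgeR 4.0.16 quasi-likelihood and DESeq2 1.42.0 on the recovered reads. Named genes are the 2 called genes with the largest gain and the 2 with the largest loss in mean value whose libraries did not overlap. The comparison and this rule were chosen with earlier results of these data known. Gene lists planned by description could not be used, since 0 identifiers matched a table.

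Replicate numbers were not treated as pairs: deviations of same-numbered early and mid libraries correlated at 0.00345 to 0.0414. Early replicates 1 and 2 correlated best with the same-numbered mid library, and early replicate 3 with mid replicate 2. With 3 libraries per stage this cannot show whether the numbers mark pairs. Same-stage libraries of the comparison differed by more than counting error: their chi-square was at least 1.49 times its degrees of freedom. They were therefore not copies of the same reads. Whether libraries were made from the same RNA cannot be told this way, since preparation also adds differences. Because PCR copies of a molecule are not independent, floors reflect counting error alone.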

Additional observations from a re-analysis of the deposited data

How the results depend on the processing

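Of 40 counts of genes higher or lower at mid maturation recomputed under 20 settings, 32 lay within 1.5 times the reported count. With a pseudocount of 4, 2570 were higher and 3307 lower. With total rescaling the counts were 1649 and 11899, with no limit on the difference 8929 and 11376, and with a limit of 2 they were 1037 and 1111. The last 2 settings change the criterion by construction. The others act on the values by construction: a larger pseudocount makes log2 differences smaller, and total rescaling lowers mid against early values for every gene. With recovered reads, edgeR gave 5690 and 6290 genes and DESeq2 5515 and 6241. With the replicate number as a block, 4181 were higher and 5403 lower. With only the 6 early and mid libraries in the limma fit, 4165 were higher and 5356 lower. The adjusted p by limma was then 0.000901 for Glyma.03G163500 and 0.000161 for Glyma.10G037100. For Glyma.19G186100 it was 7.28e-05 and for Glyma.11G153800 it was 0.00148, all larger than in the fit over all libraries. Leaving out 1 library gave 3982 to 4625 higher and 5136 to 5815 lower. Of 80 values of the named genes, 79 kept the call, and Glyma.11G153800 missed the limit of 2. Counts by level or size of change were recomputed only with median-of-ratios, upper-quartile and total rescaling and with 1 library left out. Of these 162 counts, 17 moved, all with total rescaling. Other pseudocounts, filters and count models were not run for them.

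With the 10 most abundant genes chosen on early replicate 1 or 2 and measured in the other libraries, the early share was 8.16% or 8.22%, and with the top 100 chosen on replicate 2 it was 22.3%. In checks added after seeing the data, total rescaling gave 1083 genes for 50% of the loss, 35.3% for genes that rose to mid maturation and fell to dry seed, and 41.8% for genes that fell to mid maturation and were lower in seedlings than at the cotyledon stage. The latter share was 51.1% to 53.4% with 1 library left out. The lowest depth was 3572134 reads, in mid replicate 3, where 3 reads equal 1.30, so genes near 1 are resolved poorly. With a level of 5 in place of 10, 109 genes switched upward from under 1 and 121 downward, and with 20 the counts were 13 and 15. Early replicate 3 lay at 16.0% with a pseudocount of 4. Counts by gene list were not run, since the identifiers matched no names.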
